A study of Mus musculus with 8 samples.

Results

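Signalling from the insulin receptor was followed at the level of mRNA in the liver through 10 genes: Insr, Irs1, Irs2, Pik3r1, Pik3ca, Akt1, Akt2, Foxo1, Foxo3 and Grb10. They were taken by gene name from a table of 45706 genes. All 10 were among the 14629 genes kept by a filter on low counts, and the lowest count of any of them in any mouse was 83. RNA came from the liver of 8 female C57BL/6J mice, 4 WT and 4 SA/SA, with 1 library per mouse. SA/SA mice carried the CRISPR knock-in S155A in the whole body, which turns a serine of perilipin 5 (PLIN5), a lipid droplet protein, into alanine, a residue that cannot be phosphorylated. WT mice carried no edit. Both groups were 4 months old and were killed after an overnight fast, and no fed mice were among these libraries. The comparison asks whether losing this phosphorylation site alters gene expression in fasted liver.

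Insulin binds its receptor, a tyrosine kinase, which phosphorylates the adaptor proteins IRS1 and IRS2. These recruit PI3K, a lipid kinase built from a regulatory subunit such as p85α (Pik3r1) and a catalytic subunit such as p110α (Pik3ca), and the lipid it makes brings the kinases AKT1 and AKT2 to the membrane. AKT phosphorylates the transcription factors FOXO1 and FOXO3, which then leave the nucleus. In the fasted liver, insulin is low and FOXO factors are active. They raise genes of glucose production and also Irs2 and Insr, which leaves the cell ready for the next meal. GRB10 binds the activated receptor and restrains it.

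Libraries held 39709785 to 54540864 counts in total. The labels name hepatocytes as the cell type and liver as the tissue. The summed level of 8 hepatocyte markers, among them Alb and Ttr, was between 97203 and 138563 CPM (CPM being the count scaled to a common library size after TMM normalisation), and markers of Kupffer, endothelial and stellate cells were also present, so the samples were read as whole liver. In such tissue, fewer cells of a type and less RNA per cell cannot be told apart. A pair of libraries stood apart in other cell types: 13 lymphocyte markers summed to 2069 CPM in SA/SA replicate 3 and to between 20.6 and 49.98 CPM in the other libraries, and 9 markers of pancreatic acinar cells summed to 42.2 CPM in WT replicate 2 and to between 4.27 and 6.58 CPM elsewhere. By the animal numbers in their labels, the mice fall into a low series, numbered under 500, with replicates 1 and 4 of both genotypes, and a high series with replicates 2 and 3. What the series stand for is not stated, so genotype differences are also given for each. Plin5 itself was between 183 and 254 CPM in WT mice and between 192 and 457 CPM in SA/SA mice, and a count per gene cannot separate edited from unedited transcripts.

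None of the 10 genes passed an adjusted p of 0.05 in edgeR's quasi-likelihood test of SA/SA against WT mice, in which 0% of all genes tested passed that threshold or a threshold of 0.1. Irs1, an insulin receptor substrate, was the only one of the 10 at an unadjusted p under 0.05, a level reached by 3.4% of all genes tested (1.42% higher and 1.98% lower in SA/SA mice). The count at that level was 2 without SA/SA replicate 1, which added Foxo3, and 2 without SA/SA replicate 4, which added Pik3ca. Irs1 was also the only one with no overlap between the genotypes, which held for 2.3% of all genes (0.943% with SA/SA mice higher and 1.36% with SA/SA mice lower). Of the 10 genes, 3 were higher and 7 lower in SA/SA mice, with a median log2 fold change of -0.11 beside -0.0050 over all genes tested. Of all genes tested, 7138 were higher and 7491 lower. The study had picked out Irs1 from these same libraries, so its values here are not independent evidence of a direction. The paper also reports lower Irs1 by qPCR in female SA/SA liver, without saying whether these were the same mice. It did not see this in male liver, and a lower IRS1 protein was not shown in females.

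**Figure D1:**
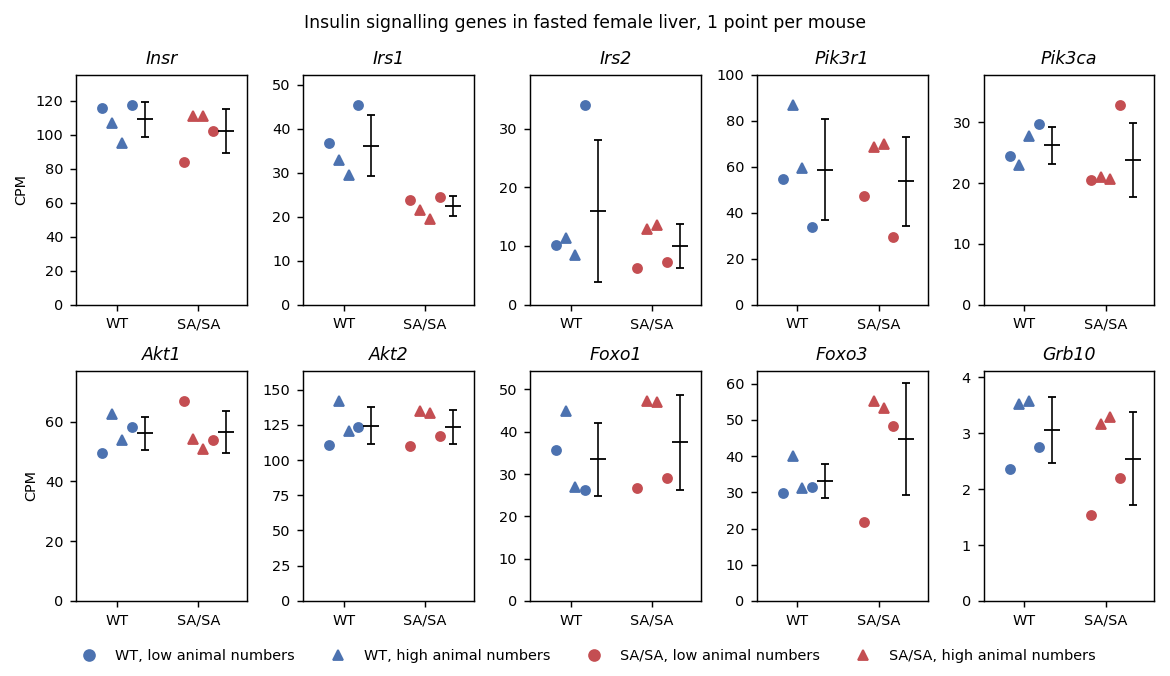
Level of each of the 10 genes (vertical axis, CPM) in every mouse, WT in blue and SA/SA in red, with circles for low and triangles for high animal numbers, and with the mean and SD of 4 mice beside each group. Only in the panel of Irs1 do all SA/SA mice (19.5 to 24.5 CPM) lie below all WT mice (29.4 to 45.5 CPM), and in the panel of Irs2 a single WT mouse lies at 34.1 CPM.

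Insr (ENSMUSG00000005534), the insulin receptor, is on the reverse strand of chromosome 8 (GRCm38), at 3122061 to 3279617. Its level was 115.6, 107.0, 95.3 and 117.6 CPM in WT replicates 1 to 4. In SA/SA replicates 1 to 4 it was 83.6, 110.8, 111.1 and 102.2 CPM. The ranges overlapped over most of their width, and the lowest mouse was SA/SA replicate 1. Between genotypes the log2 fold change was -0.10 with a 95% interval from -0.36 to 0.17, which as ratios runs from 0.777 to 1.13. The difference in mean log2 CPM was -0.34 among the mice with low numbers and 0.14 among those with high numbers.

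Irs1 (ENSMUSG00000055980), the substrate best known for its role after feeding, is on the reverse strand of chromosome 1, at 82233101 to 82291416, and overlaps Gm9747 on the forward strand. WT replicates 1 to 4 had 36.8, 32.8, 29.4 and 45.5 CPM. SA/SA replicates 1 to 4 had 23.8, 21.5, 19.5 and 24.5 CPM. The highest SA/SA mouse was below the lowest WT mouse. Mean Irs1 was 36.1 ± 6.96 CPM for WT and 22.3 ± 2.26 CPM for SA/SA mice (SD, n = 4 each). Its log2 fold change was -0.69 (SE 0.14, 95% interval from -1.01 to -0.37), with an unadjusted p of 0.000724 and an adjusted p of 0.993 in edgeR, and a two-sided exact permutation test gave p = 0.0286, the smallest this design allows. With DESeq2 the adjusted p was 0.0574, where 0.0411% of genes passed a threshold of 0.05 and 0.0479% a threshold of 0.1. Irs1 thus missed an adjusted threshold of 0.05 with both tools. Under the edgeR and limma-voom alternatives its adjusted p stayed at 0.798 or above.

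The lower level of Irs1 was seen in both series, at -0.76 (difference in mean log2 CPM) for low and -0.60 for high animal numbers. Since the genotypes did not overlap, neither series could have shown the other sign. Without SA/SA replicate 3, which carried the lymphocyte markers, the log2 fold change was -0.63. All 8 stellate cell markers were also lower in SA/SA mice, none of them at an unadjusted p under 0.05, and their summed level was between 265 and 344 CPM in WT mice and between 119 and 271 CPM in SA/SA mice. Of the 8 endothelial markers 6 were lower, and their sum was between 146 and 214 CPM in WT mice and between 123 and 165 CPM in SA/SA mice. Over all mice, markers were mostly higher in SA/SA mice for hepatocytes (7 of 8), Kupffer cells and macrophages (8 of 8) and lymphocytes (12 of 13). In the low series, however, all Kupffer markers but Marco and all hepatocyte markers but Apoa1 and Ttr were lower in SA/SA mice. In the high series all of them but Ttr were higher. Lymphocyte markers went both ways in the low series. The Kupffer sums overlapped, between 221 and 439 CPM in WT mice and between 231 and 498 CPM in SA/SA mice. Of the markers tested, those of cholangiocytes were 2 higher and 4 lower, of adipocytes 2 and 1, and of pancreatic acinar cells 0 and 2. Among lymphocyte markers, 4 were at an unadjusted p under 0.05. Of these 4, Jchain, Ighm and Igkc had log2 fold changes of 0.0088, 0.0062 and 0.53 without SA/SA replicate 3. Cd3d was between 0.95 and 1.28 with a mouse left out. The part of these cells in the difference of Irs1 was not tested.

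Irs2 (ENSMUSG00000038894), the substrate that FOXO factors and glucagon raise during a fast, is on the reverse strand of chromosome 8, at 10984681 to 11008458, and overlaps 9530052E02Rik on the forward strand. WT replicates 1 to 4 had 10.2, 11.3, 8.42 and 34.1 CPM. SA/SA replicates 1 to 4 had 6.23, 12.8, 13.6 and 7.34 CPM. WT replicate 4 stood far above every other mouse, and the remaining WT mice lay inside the range of SA/SA mice. Irs2 had a log2 fold change of -0.68 (SE 0.45, 95% interval from -1.68 to 0.32, edgeR unadjusted p = 0.159), almost the size of that of Irs1, but it was 0.00087 without WT replicate 4.

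The difference in Irs2 also changed sign between the series. The difference in mean log2 CPM was -1.46 for low animal numbers and 0.44 for high ones, where both SA/SA mice were above both WT mice. The test of the interaction of genotype with series gave Irs2 an unadjusted p of 0.00974 and an adjusted p of 0.310 (edgeR). Insr, with the same pair of signs, had an unadjusted p of 0.0400 and an adjusted p of 0.421 in this test. These 2 were the only ones of the 10 at an unadjusted p under 0.05, beside 11.1% of all genes, and 0% of genes passed an adjusted p of 0.05. The low series of WT mice includes WT replicate 4.

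The promoters of Irs1 and Irs2 are shown because these are the insulin receptor substrates among the members and because both are known targets of factors active in fasting. RefSeq promoters of build GRCm38.p6 were searched over 250 bases before the start of transcription, on both strands, for the E-box CACGTG, bound by TFE3 and related factors, and for CAAAACA, the core of the insulin response element bound by FOXO factors. In the lines below, capitals mark both motifs, with CAAAACA read from the opposite strand as TGTTTTG. The stretch of Irs1 is chr1:82291536-82291566, that of Irs2 is chr8:11008952-11008985, and that of their paralogue Irs4 is chrX:141725350-141725383, all on the reverse strand and written 5′ to 3′ in the direction of transcription.
Irs1: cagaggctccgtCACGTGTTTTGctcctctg
Irs2: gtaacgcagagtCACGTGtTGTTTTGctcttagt
Irs4: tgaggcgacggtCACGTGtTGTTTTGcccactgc

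In Irs1 the E-box, from -115 to -110, shares 2 bases with the insulin response element, from -111 to -105. In Irs2 the E-box, from -44 to -39, is followed after 1 base by the element, from -37 to -31, and in Irs4 the same spacing occurs from -154 to -141. The E-box was found in 6.02% of 32851 promoters and the element in 5.56%, both occurred in 0.295%, and an E-box overlapping the element or within 5 bases of it occurred in 7 promoters (0.0213%). Besides Irs1, Irs2 and Irs4, these belonged to 1700019P21Rik, Klf11, Pcbp1 and Pyroxd1. The promoter of Irs3, another paralogue, held neither motif. A match describes these letters only and does not show that a factor was bound.

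The whole promoter of Irs1, chr1:82291440-82291689 on the reverse strand, has a GC content of 72.4% and holds 4 matches, which are in capitals: the pair above, a second CAAAACA from -32 to -26, and TGACG, the short form of the cAMP response element, which overlaps the E-box from -118 to -114.
Irs1 promoter: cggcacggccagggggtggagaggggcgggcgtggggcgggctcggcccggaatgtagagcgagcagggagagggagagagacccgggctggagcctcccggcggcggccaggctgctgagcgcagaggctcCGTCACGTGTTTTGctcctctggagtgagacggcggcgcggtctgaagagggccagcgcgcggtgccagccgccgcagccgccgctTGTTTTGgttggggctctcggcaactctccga

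The same search covered the other members with a promoter in the RefSeq table, 9 of 10 genes in all, with none listed for Insr. The FOXO element GTAAACA, present in 3.17% of promoters, was matched in a promoter of Akt1 from -161 to -155. TGACG, present in 17.8% of promoters, was matched in promoters of Pik3r1, Akt2, Foxo3 and Grb10. The full cAMP response element TGACGTCA, present in 1.55% of promoters, was matched in none of the 9 genes, and the promoters of Foxo1 and Pik3ca held none of the 5 motifs.

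Pik3r1 (ENSMUSG00000041417), the main regulatory subunit of PI3K, is on the reverse strand of chromosome 13, at 101680563 to 101768217. Its level was 54.9, 87.1, 59.3 and 33.6 CPM in WT replicates 1 to 4, and 47.1, 68.6, 70.03 and 29.3 CPM in SA/SA replicates 1 to 4. In both genotypes replicate 4 was lowest and the mice with high animal numbers were highest, so that the spread ran along the series and not the genotype. Between genotypes the log2 fold change was -0.13 with a 95% interval from -0.83 to 0.58.

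Pik3ca (ENSMUSG00000027665), the catalytic subunit, is on the forward strand of chromosome 3, at 32397671 to 32468486. It was at 24.4, 22.98, 27.7 and 29.7 CPM in WT replicates 1 to 4 and at 20.6, 20.97, 20.7 and 32.9 CPM in SA/SA replicates 1 to 4. In SA/SA mice, 3 of 4 were below every WT mouse and the fourth was above them all. The genotypes differed by a log2 fold change of -0.14 (95% interval from -0.52 to 0.24), and without SA/SA replicate 4 it was -0.34.

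Akt1 (ENSMUSG00000001729, chromosome 12 from 112653821 to 112674884, reverse strand) and Akt2 (ENSMUSG00000004056, chromosome 7 from 27591552 to 27640826, forward strand) encode the kinases below PI3K, of which AKT2 is best known for the metabolic actions of insulin in liver. Akt1 was at 49.6, 62.6, 53.8 and 58.4 CPM in WT replicates 1 to 4 and at 66.9, 54.3, 51.0 and 54.0 CPM in SA/SA replicates 1 to 4. Akt2 was at 110.9, 141.9, 120.9 and 123.7 CPM in WT replicates 1 to 4 and at 110.2, 134.6, 133.2 and 116.9 CPM in SA/SA replicates 1 to 4. Neither gene separated the genotypes at any point of its range. They had the narrowest intervals of the 10, from -0.25 to 0.27 for Akt1 around a log2 fold change of 0.013, and from -0.26 to 0.24 for Akt2 around -0.0074. As ratios of SA/SA to WT, these bounds were 0.842 and 1.21 for Akt1 and 0.837 and 1.18 for Akt2.

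Foxo1 (ENSMUSG00000044167), the FOXO factor that drives glucose production in fasted liver, is on the forward strand of chromosome 3, at 52268336 to 52353221. In WT replicates 1 to 4 it was at 35.6, 44.9, 26.95 and 26.4 CPM, and in SA/SA replicates 1 to 4 at 26.7, 47.3, 47.1 and 29.1 CPM. The SA/SA mice formed a low and a high pair that followed the series. A log2 fold change of 0.17 (95% interval from -0.36 to 0.69) was made up of -0.14 for low and 0.44 for high animal numbers.

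Foxo3 (ENSMUSG00000048756), a second FOXO factor that shares target genes with FOXO1, is on the reverse strand of chromosome 10, at 42181841 to 42276755. Levels were 29.7, 40.2, 31.2 and 31.4 CPM in WT replicates 1 to 4, and 21.9, 55.2, 53.4 and 48.4 CPM in SA/SA replicates 1 to 4. In SA/SA mice, 3 of 4 were above every WT mouse and SA/SA replicate 1 was below them all. Foxo3 had a log2 fold change of 0.43 (95% interval from -0.13 to 0.99, edgeR unadjusted p = 0.117), and the two-sided exact permutation p with 4 mice against 4 was 0.371. Without SA/SA replicate 1 the log2 fold change was 0.66.

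Grb10 (ENSMUSG00000020176), an imprinted gene whose product inhibits the receptor, is on the reverse strand of chromosome 11, at 11930508 to 12038683. It was scarce, with counts between 83 and 177 per library. Its level was 2.37, 3.53, 3.58 and 2.76 CPM in WT replicates 1 to 4, and in SA/SA replicates 1 to 4 it was 1.54, 3.16, 3.30 and 2.19 CPM. The mice with high animal numbers were above all those with low numbers, whatever the genotype. Between genotypes the log2 fold change was -0.27, and its interval, from -0.88 to 0.35, allowed a change of either sign.

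**Figure D2:**
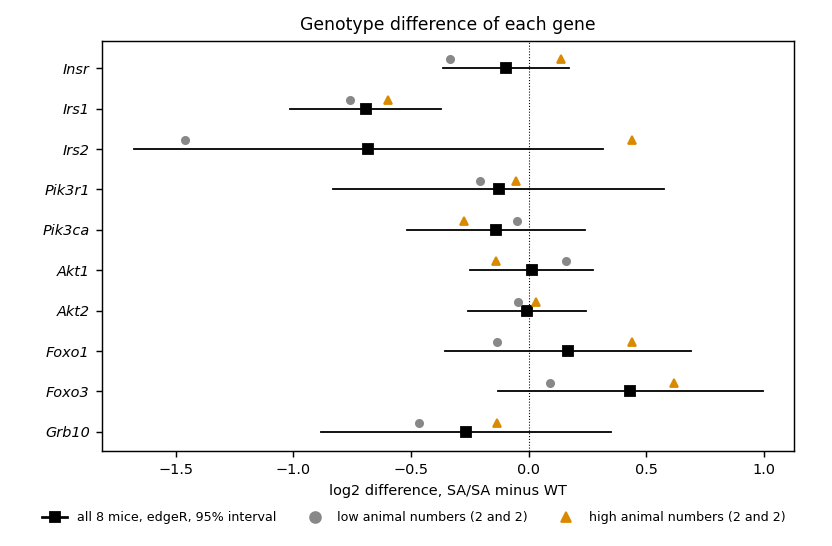
Log2 fold change of SA/SA against WT mice (horizontal axis) for each of the 10 genes, with the 95% interval from edgeR as a bar and the differences within the low and the high animal number series as separate marks. The interval of Irs1, from -1.01 to -0.37, is the only one without 0, and the 2 series differ in sign for 5 genes.

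The series was then compared directly, high against low animal numbers beside genotype in edgeR, a test chosen after these values had been seen. Pik3r1 was at 41.2 ± 11.8 CPM in the low series and 71.3 ± 11.6 CPM in the high series (SD, n = 4 each), a log2 fold change of 0.79 (SE 0.20, edgeR unadjusted p = 0.00330, adjusted p = 0.200). Grb10 differed by 0.63 on the log2 scale (SE 0.20, edgeR unadjusted p = 0.0125, adjusted p = 0.272). These were the 2 genes of the 10 whose series did not overlap, which held for 6.85% of all genes (3.53% higher and 3.32% lower in the high series).

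With Irs1, at a log2 fold change of -0.32, and Foxo1, at 0.49, 4 of the 10 genes reached an unadjusted p under 0.05 for the series, beside 12.8% of all genes, and 0% of genes passed an adjusted p of 0.05. Irs1 was the only one of the 10 that did so for both genotype and series. No label says what sets the series apart, and this was not tested.

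The genes also differed in how much mice of a genotype varied. The SD of log2 CPM within genotypes was 0.76 for Irs2, higher than in 90.9% of all genes tested, and 0.58 for Pik3r1, higher than in 83.0% of them. Akt2, at 0.14 (17.1%), and Akt1, at 0.16 (21.2%), were among the steadier genes. Irs1, at 0.22 (37.7%), lay between them.

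Per length of exon, the members spanned a wide range of levels over the 8 mice. The kinases came first, Akt2 at 17.4 ± 1.63 and Akt1 at 13.7 ± 1.45 CPM per kb (SD, n = 8). The receptor Insr followed at 7.67 ± 0.828 CPM per kb, then Pik3r1 at 5.58, Foxo3 at 5.14 and Foxo1 at 4.10 CPM per kb. The substrates Irs1, at 3.20 ± 0.961, and Irs2, at 2.06 ± 1.41 CPM per kb, were on either side of Pik3ca at 2.75 CPM per kb. The adaptors were thus among the scarcer mRNAs of the 10, below the receptor they bind and the AKT kinases they act through. Grb10 was last at 0.309 ± 0.0796 CPM per kb. Only 2 neighbours in this order had ranges that did not overlap, Akt1 above Insr and Irs2 above Grb10, and the order was the same when the longest transcript replaced the union of exons.

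**Figure D3:**
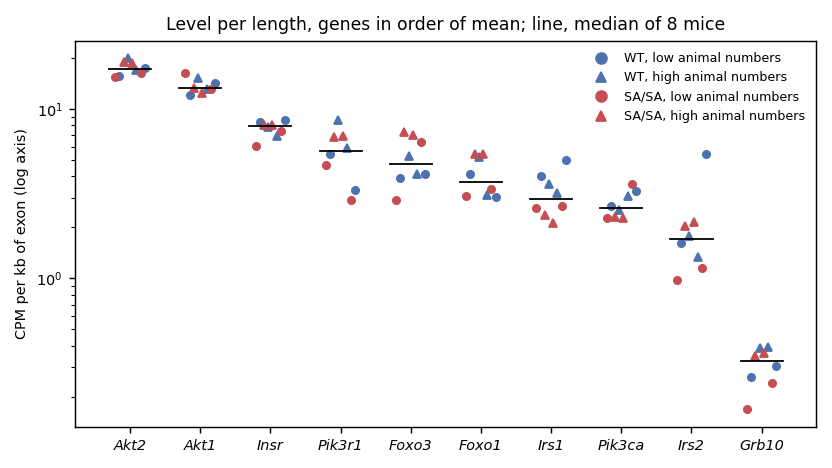
Level per length of exon (CPM per kb, log axis) of the 10 genes in order of their means, with 1 point per mouse, WT in blue and SA/SA in red. Akt2 and Akt1 lie above 12 CPM per kb in every mouse, and Grb10 lies at or below 0.394 CPM per kb in every mouse.

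Ratios of CPM between partner genes, which do not depend on library scaling, were compared in each mouse. The log2 ratio of Irs1 to Irs2 was 1.84, 1.53, 1.80 and 0.42 in WT replicates 1 to 4 and 1.92, 0.75, 0.52 and 1.74 in SA/SA replicates 1 to 4. The ratio did not separate the genotypes (difference -0.17, two-sided exact permutation p = 0.914), and the difference was 0.70 for low and -1.03 for high animal numbers. The log2 ratio of Akt2 to Akt1 stayed between 1.08 and 1.18 in WT mice and ranged from 0.72 to 1.38 in SA/SA mice. The log2 ratio of Pik3r1 to Pik3ca ranged from -0.17 to 1.92 over the 8 mice. The 4 ratios tested, which included Foxo1 to Foxo3 with a difference of -0.20, differed between genotypes with an adjusted p of 0.943 each in the exact permutation test.

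Irs2 was set against the other 9 members and 4 FOXO1 target genes across the 8 mice, 13 relations in all. No relation reached an adjusted p of 0.05. Over all 8 mice the closest member was Insr (Pearson r = 0.74, permutation p = 0.0462, adjusted p = 0.300; Spearman rho = 0.83, permutation p = 0.0154, adjusted p = 0.200), and r was 0.68 without WT replicate 4 and SA/SA replicate 1, the mice farthest from the median of Irs2. Over the 6 mice left, 3 members had an r of larger size than Insr, Pik3ca (r = -0.99, from 0.16 over all 8), Foxo1 (r = 0.94, from 0.10) and Pik3r1 (r = 0.79, from -0.094), so the order of the members rested on those mice. Igfbp1, a secreted binding protein that FOXO1 raises, had r = 0.73 (permutation p = 0.0425, adjusted p = 0.300; rho = 0.64) but r = 0.19 without those mice. G6pc, glucose-6-phosphatase, had r = 0.68 but r = -0.50 without them, so that both relations rested on those mice. Pck1, an enzyme of glucose production, had r = 0.42, and -0.70 without them. Ppargc1a, a transcriptional coactivator, had r = -0.024, and -0.70 without them. No correlation is given within a series, since each holds 4 mice and a minimum of 6 was used.

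**Figure D4:**
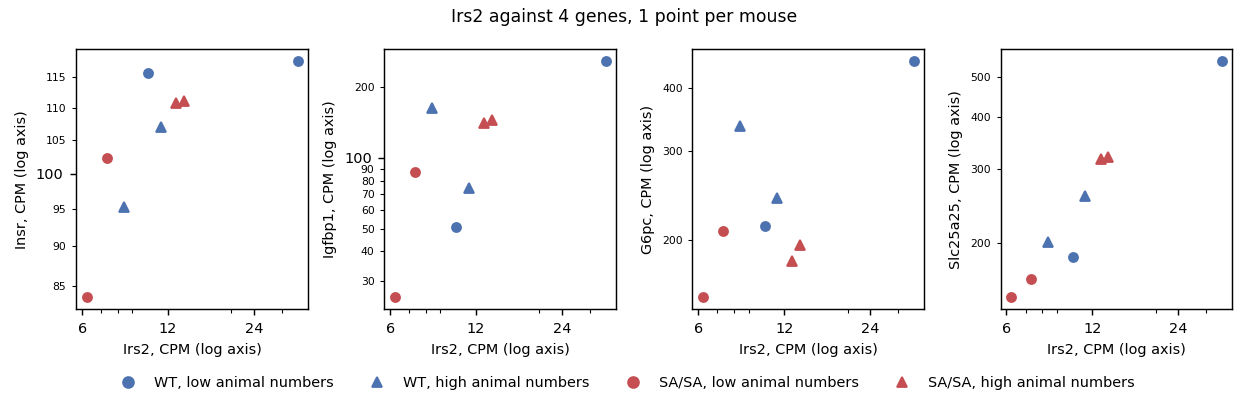
Irs2 (horizontal axis, CPM, log axis) against Insr, Igfbp1, G6pc and Slc25a25 (vertical axes, CPM, log axes), with 1 point per mouse, colours for genotype and shapes for animal number series. WT replicate 4, at 34.1 CPM of Irs2, is the rightmost point in each panel and the highest in all 4.

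By Pearson r of log2 CPM over the 8 mice, given as a description without a test, the 5 genes outside the pathway lists most like Irs1 were Zeb1 (r = 0.98), Asb3, Lrp6, Pura and Kif1b (r = 0.93). Zeb1, a transcriptional repressor, had 11.7, 11.2, 11.2 and 13.03 CPM in WT replicates 1 to 4 and 9.58, 9.22, 8.95 and 9.51 CPM in SA/SA replicates 1 to 4. Lrp6, a co-receptor for Wnt ligands, was between 54.7 and 67.4 CPM in WT mice and between 48.2 and 50.9 CPM in SA/SA mice. Genes picked for likeness to Irs1 tend to share its split by genotype, which was found in 2.3% of all genes tested. The levels of Zeb1 and Lrp6 are therefore no further evidence of a genotype difference. The genes most like Irs2 were Slc25a25 (r = 0.96), Klf6, Ifngr1, Efna1 and Arid1b (r = 0.92). Slc25a25, a mitochondrial carrier of ATP-Mg and phosphate, was at 546 CPM in WT replicate 4 and at 148 CPM in SA/SA replicate 1, the mice with the most and the least Irs2.

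Beyond the 10 members, 99 genes of the pathway were taken in 7 lists, and 94 of them were tested. Of these, 36 were higher and 58 lower in SA/SA mice, with a median log2 fold change of -0.063. Over all genes tested, 7138 were higher and 7491 lower, with a median of -0.0050. None of the 94 passed an adjusted p of 0.05, and 4 (4.26%, beside 3.4% of all genes) were at an unadjusted p under 0.05, 1 higher and 3 lower. Among receptors and adaptors, 4 genes were higher and 9 lower (median -0.13). Among PI3K subunits, 4 were higher and 8 lower (median -0.10), and among AKT and its kinases 1 was higher and 6 were lower (median -0.033), with no gene of these 3 lists at an unadjusted p under 0.05.

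Brakes on the pathway, such as phosphatases and SOCS proteins, were balanced, with 9 genes higher and 9 lower (median 0.014). Trib3, a pseudokinase that binds AKT, had 6.62, 5.24, 7.87 and 9.95 CPM in WT replicates 1 to 4 and 8.08, 16.5, 13.9 and 12.6 CPM in SA/SA replicates 1 to 4. All but the first SA/SA mouse were above every WT mouse, with a log2 fold change of 0.78 (SE 0.25, edgeR unadjusted p = 0.00972, adjusted p = 0.993). The difference was 0.31 for low and 1.23 for high animal numbers. Substrates of AKT and their targets numbered 7 higher and 11 lower (median -0.021). Among them Pde3b, the phosphodiesterase through which AKT lowers cAMP, was at 48.5, 35.4, 39.5 and 30.7 CPM in WT replicates 1 to 4 and at 25.3, 28.5, 33.6 and 27.6 CPM in SA/SA replicates 1 to 4, a log2 fold change of -0.42 (SE 0.15, edgeR unadjusted p = 0.0181, adjusted p = 0.993) with overlapping groups. Pde3b differed by -0.54 for low and -0.27 for high animal numbers.

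Genes that FOXO1 raises were 5 higher and 9 lower (median -0.082). Groups did not overlap in 2.3% of all genes tested (1.36% with SA/SA mice lower). G6pc, which releases glucose from glucose-6-phosphate, was the only one of the 94 genes for which this held. It was at 213, 242, 335 and 451 CPM in WT replicates 1 to 4 and at 154, 181, 195 and 208 CPM in SA/SA replicates 1 to 4. Its log2 fold change was -0.75 (SE 0.22, edgeR unadjusted p = 0.00655, adjusted p = 0.993), and the difference was -0.80 for low and -0.60 for high animal numbers. Without overlap, neither series could have shown the other sign. By qPCR, the paper reports no change of G6pc in female SA/SA liver. The other FOXO1 targets set against Irs2 did not separate the genotypes: the log2 fold change was -0.45 (95% interval from -1.73 to 0.83) for Igfbp1, -0.074 (from -0.57 to 0.42) for Pck1, the rate-limiting enzyme of glucose production, and 0.35 (from -0.79 to 1.498) for the coactivator Ppargc1a. Leaving out 1 mouse turned each of these signs: Igfbp1 was at 0.056 and Pck1 at 0.10 without WT replicate 4, and Ppargc1a at -0.51 without SA/SA replicate 4, which had 29.5 CPM where the rest of its group had 6.08 to 8.21 CPM.

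Genes that insulin raises, mainly of lipid synthesis, were 6 higher and 6 lower (median -0.0079). Scd1, which desaturates fatty acids, was at 701, 1962, 3095 and 1010 CPM in WT replicates 1 to 4 and at 1190, 412, 580 and 352 CPM in SA/SA replicates 1 to 4. SA/SA replicate 1 was above 2 WT mice, and the 3 remaining SA/SA mice were below all WT mice. Scd1 had a log2 fold change of -1.42 (SE 0.50, edgeR unadjusted p = 0.0176, adjusted p = 0.993), with a difference of -0.38 for low and -2.33 for high animal numbers.

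**Figure D5:**
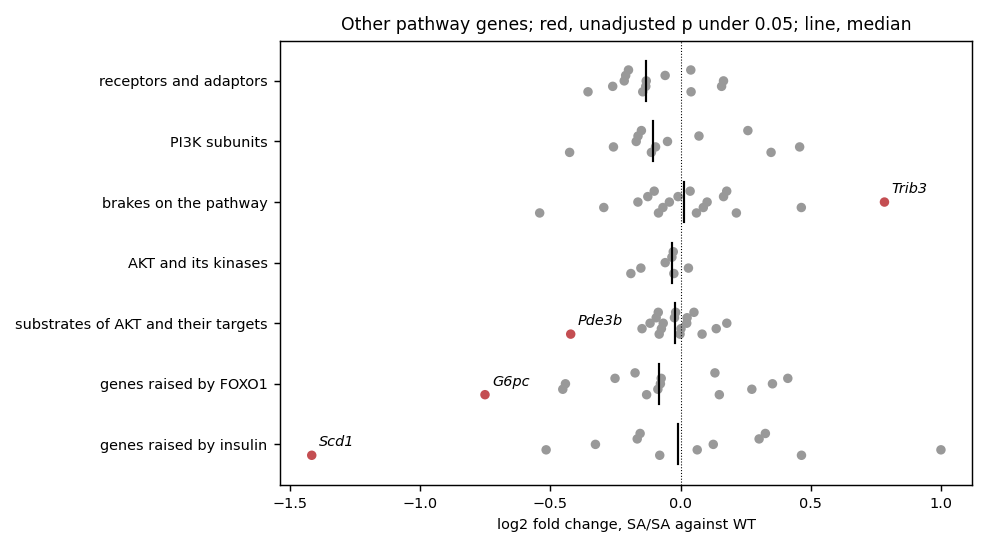
Log2 fold change of SA/SA against WT mice (horizontal axis) for the 94 tested genes of 7 pathway lists, with 1 point per gene, the list median as a line and genes at an unadjusted p under 0.05 in red and named. The 4 named genes are Trib3 at 0.78, Pde3b at -0.42, G6pc at -0.75 and Scd1 at -1.42, and every list median lies between -0.13 and 0.014.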

How the data were processed

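RNA was extracted from liver with TRIzol, and stranded mRNA libraries were sequenced as 100 bp pairs. Estimated counts from salmon, 1 per gene and mouse, were deposited by the authors after length scaling and without library size normalisation. The submitters' processing notes name bcl2fastq, STAR, SAMtools, MultiQC, DESeq2 and build GRCm38. The salmon version, the annotation and the use of strand in counting are not given in the sources used here, so reads of overlapping antisense genes may be mixed. Length scaling can move a count where isoforms differ between mice.

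Estimated counts were rounded, filtered with filterByExpr and compared over all 8 mice with the quasi-likelihood test of edgeR 4.0.16 (R 4.3.3) after TMM normalisation, with Benjamini-Hochberg adjustment over 14629 genes. The SE and 95% interval came from the F statistic, and log2 CPM used a prior count of 2. Single genes and ratios were also compared by two-sided exact permutation tests, and relations over all 40320 pairings. The scripts were checked on simulated counts. Alternatives were DESeq2 1.42.0, limma-voom (limma 3.58.1), other scalings and filters, the series or replicate number as a term, and leaving out each mouse. No libraries were copies of each other (smallest chi-square per gene 40.4). The mice are separate animals.

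Named genes were the 10 members, Plin5, pathway genes at an adjusted p under 0.05 or, at an unadjusted p under 0.05, up to 3 per list and direction, 4 FOXO1 targets and the 5 genes most like Irs1 and Irs2. Members and lists were chosen with earlier results of these data known. Coordinates are from GENCODE M21 (GRCm38), in which 45143 of the identifiers were found, and promoters are from RefSeq (GRCm38.p6). The RefSeq start of Irs2 lies upstream of the GENCODE one.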

Additional observations from a re-analysis of the deposited data

Results flagged for a closer look

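Within groups of 4 mice and on the log2 CPM scale, a gap between a single mouse and the rest beyond Dixon's critical value at the 95% level was found for 2 members. SA/SA replicate 4 had 32.9 CPM of Pik3ca, where the rest of its group ranged from 20.6 to 20.97 CPM. SA/SA replicate 1 had 21.9 CPM of Foxo3, where the rest of its group ranged from 48.4 to 55.2 CPM. On linear CPM, chosen after the values were seen, the gap of Pik3ca still passed and that of Foxo3 in SA/SA mice did not, while those of WT replicate 4 for Irs2 (34.1 CPM) and WT replicate 2 for Foxo3 (40.2 CPM) did. In all, 28 groups of 4 were searched, of which chance would mark about 1.4.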

How the results depend on the processing

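None of the 10 genes passed an adjusted p of 0.05 under any alternative tried. The number of members at an unadjusted p under 0.05 was 1 in all of them except when a mouse was left out, where it was between 1 and 2, with Foxo3 added without SA/SA replicate 1 and Pik3ca added without SA/SA replicate 4. The number of pathway genes at that level was 4, between 3 and 6 with a mouse left out, 5 with library size alone, 6 with the animal number series as a term and 8 with a replicate block. Same-numbered mice were at most weakly correlated, at 0.056, 0.17, -0.11 and 0.13, in deviations from their group means. The same-numbered SA/SA mouse was still the closest one for WT replicates 1, 2 and 4. The block changed no other call.

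Irs1 kept its sign under every alternative, between -0.78 and -0.56 with a mouse left out. Its genotypes did not overlap, so leaving out a mouse could not have turned that sign. With a mouse left out, Irs2 ranged from -0.89 to 0.00087, Pik3r1 from -0.32 to 0.13, Akt1 from -0.079 to 0.070 and Akt2 from -0.054 to 0.063. Without turning sign, Insr ranged from -0.15 to -0.011 (without SA/SA replicate 1), Pik3ca from -0.34 to -0.073, Foxo1 from 0.039 (without SA/SA replicate 3) to 0.34 (without WT replicate 2), Foxo3 from 0.32 to 0.66 and Grb10 from -0.41 to -0.085 (without SA/SA replicate 1). Akt1 was -0.018 with library size alone. The log2 ratios ranged from -0.49 to 0.072 for Irs1 to Irs2, from -0.27 to 0.46 for Pik3r1 to Pik3ca and from -0.10 to 0.12 for Akt2 to Akt1. Without the 2 mice farthest from the median of Irs2, the sign of Pearson r with Irs2 turned for Irs1 (-0.36), Pik3r1 (0.79), Pik3ca (-0.99), Akt1 (0.0021), G6pc (-0.50) and Pck1 (-0.70). Where no value above shows it, the cause was not tested. The median log2 fold change of all genes was -0.0050, and -0.042 with library size alone. With 4 mice per group, the 95% intervals of Irs1, Irs2, Pik3r1, Foxo1, Foxo3 and Grb10 reached beyond 1.5-fold in at least 1 direction, and Grb10, with 83 to 177 counts per library, had the least depth.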

Other observations

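Levels were also taken for paralogues of the members, which were picked after their values were seen. Grb14, the sister of Grb10 and also an inhibitor of the receptor, was at 6.49 ± 0.555 CPM per kb (SD, n = 8), beside 0.309 CPM per kb for Grb10. Foxo4 was at 7.63 ± 0.855 CPM per kb, above Foxo1 and Foxo3 by mean, and the regulatory subunit Pik3r2 was at 7.77 ± 0.790 CPM per kb, above Pik3r1 by mean. The catalytic subunit Pik3cb was at 1.72 CPM per kb, and Pik3cd, better known from immune cells, at 0.936 CPM per kb.

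Other paralogues were lower. Irs3 was at 0.105 CPM per kb, and the receptor of IGF1, Igf1r, was at 0.0392 CPM per kb, between 14 and 62 counts per library. Irs4, whose promoter carries the same motif pair as that of Irs2, had 0 counts in all 8 libraries, which allows up to 3 counts in a library, or 0.0755 CPM in the smallest one, for counting error only. None of the paralogues named here that were tested was at an unadjusted p under 0.05 between genotypes, with log2 fold changes from -0.36 for Igf1r to 0.46 for Pik3cg.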
